A study of Mus musculus with 4 samples.

Results

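The adult haemoglobin genes and other genes of the red cell lineage were examined in B220+ B cells of the spleen with and without the H3K36 methyltransferase NSD1. The genes were chosen by symbol. They are the alpha chain genes Hba-a1 and Hba-a2, the beta chain genes Hbb-bs and Hbb-bt, the membrane genes Slc4a1 and Epb42, and the transcription factor genes Klf1 and Gata1. These are 8 of the 55401 genes listed, out of 9 named in the rule, and Ahsp was not analysed here. The choice was made with the counts of these libraries known, so the change of these 8 genes between the genotypes is given as a description without a test.

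RNA was sequenced from 2 libraries of NSD1B WT mice (Mb1-Cre+ NSD1+/+) and 2 libraries of NSD1B KO mice (Mb1-Cre+ NSD1fl/fl), all on the C57BL/6J background. Both genotypes carry Mb1-Cre, which is expressed from the Cd79a locus and acts in B lineage cells from an early stage. Cells were sorted on B220, and per the labels only sorts of over 98% purity were used. The methods name young adult mice of both sexes for the experiments in general. The labels do not mention a lysis of red cells, nor do they say if each library is a separate mouse. The p-values below may therefore measure only technical spread between libraries.

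Adult haemoglobin is built from a pair of alpha and a pair of beta chains, each carrying haem. In mice on the C57BL/6 background each chain is made from a pair of nearly identical genes. Developing red cells switch these genes on under the transcription factors GATA1 and KLF1. They then lose their nucleus, and the reticulocyte that enters the blood still holds haemoglobin mRNA, while much other RNA has been broken down. The spleen of the mouse both filters blood and supports red cell production.

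The coding sequences show how far the counts can tell the copies apart. Hba-a1 and Hba-a2 lie on chromosome 11, with Hbq1b between them, Hbb-bs and Hbb-bt lie on chromosome 7, and each of the 4 genes has 3 exons. In the GENCODE M21 transcripts the 426 coding nt of Hba-a1 and Hba-a2 differ at 1 base (C381T, counted from the first coding base with Hba-a1 first). The 441 coding nt of Hbb-bs and Hbb-bt also differ at 1 base (C417T, with Hbb-bs first). The stretch of 41 nt around each difference is shown from exon 3, 5′ to 3′, with the differing base in capitals.

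Hba-a1 (chr11:32284323-32284363, plus strand, GRCm38): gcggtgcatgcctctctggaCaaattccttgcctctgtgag
Hba-a2 (chr11:32297140-32297180, plus strand): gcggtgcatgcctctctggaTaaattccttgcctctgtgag
Hbb-bs (chr7:103826672-103826712, minus strand): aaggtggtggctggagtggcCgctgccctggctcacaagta
Hbb-bt (chr7:103812663-103812703, minus strand): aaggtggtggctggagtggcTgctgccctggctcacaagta

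Of the 550 windows of 150 nt, the read length, in the transcript of Hba-a1, 266 (48.4%) occur letter for letter in Hba-a2. For Hba-a2 the share is 65.7% of 405 windows, for Hbb-bs 58.7% of 479 and for Hbb-bt 50.7% of 554, each found in the other gene of the pair. Reads that mapped to more than 1 place were left out of the gene counts and made up 11.2% and 12.1% of the counted reads in NSD1B WT and 12.7% and 13.2% in NSD1B KO. The split of counts between the genes of a pair is therefore uncertain, and the counts of all 4 genes may be too low. How far this acts on the genotypes was not tested.

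The promoters of the haemoglobin genes are shown because all 4 genes were higher in the same 2 libraries. The 120 bases before the start site in RefSeq (GRCm38.p6) are given 5′ to 3′, with matches to a few motifs of globin promoters in capitals, searched on both strands. The GENCODE M21 gene bounds, given below, begin farther upstream than the RefSeq starts. By those bounds the stretches of Hba-a1 and Hbb-bs lie inside the genes, and those of Hba-a2 and Hbb-bt overlap theirs in part. The CCAAT box was searched by these letters, and the CACCC box in its shorter form CCACCC and in its longer form CCACACCC. The TATA box was taken as TATAAA and, with a different last base, as TATAAG.

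Hba-a1 (chr11:32283552-32283671, plus strand): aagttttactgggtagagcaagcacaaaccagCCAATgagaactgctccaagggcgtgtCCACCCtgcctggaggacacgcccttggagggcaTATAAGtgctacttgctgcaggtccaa
Hba-a2 (chr11:32296372-32296491, plus strand): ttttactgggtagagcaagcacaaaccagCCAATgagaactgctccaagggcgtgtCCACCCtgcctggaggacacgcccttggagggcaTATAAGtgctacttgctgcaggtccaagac
Hbb-bs (chr7:103827929-103828048, minus strand): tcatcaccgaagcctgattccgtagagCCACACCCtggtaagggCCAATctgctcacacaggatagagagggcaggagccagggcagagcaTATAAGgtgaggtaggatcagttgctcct
Hbb-bt (chr7:103813924-103814043, minus strand): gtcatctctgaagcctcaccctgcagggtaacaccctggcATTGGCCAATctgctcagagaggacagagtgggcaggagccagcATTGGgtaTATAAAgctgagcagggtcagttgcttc

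Hba-a1 and Hba-a2 share 297 bases of their 300-base promoter records without a break, whereas the longest run shared by Hbb-bs and Hbb-bt is 14 bases. In the 250 bases before the start, a CACCC box, a CCAAT box and a TATA box are present in all 4 haemoglobin genes, and in 30.1%, 33.8% and 17.0% of all 32851 promoters of the same length. The CACCC box of Hbb-bt lies farther from the start than the bases shown. A GATA match (AGATAA or TGATAA) stands in Hba-a1, Hba-a2 and Hbb-bs, and in 16.6% of all promoters. These letters do not occur in this window of Hbb-bt. Among the other genes examined, Epb42 and Klf1 hold a GATA match and Gata1 a CACCC box. Epb42 also holds a TATA box and Klf1 a CCAAT box. For Slc4a1 there was no promoter record to search. A match describes letters and does not show binding.

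Counts on genes lay between 6769118 and 7566834 in a library, and between 12383 and 13084 genes were counted. Nsd1, the targeted gene, counted over its whole length, had 497 and 480 counts in NSD1B WT and 284 and 280 in NSD1B KO (log2 fold change -0.74, standard error 0.11, adjusted p = 8.08e-08, quasi-likelihood test of edgeR, Benjamini-Hochberg adjustment). Of 11657 genes tested, 4324 were higher and 4795 lower in NSD1B KO by more than 1.2-fold with an adjusted p under 0.05, together 78.2%. Among the called genes, 890 of those higher had 0 counts in both NSD1B WT libraries, and 1313 of those lower had 0 in both NSD1B KO libraries. Genes without a count in 1 library of a pair and with at least 25 counts in its partner numbered 0 within each genotype and 1816 to 1852 between genotypes. The 8 genes of the B cell list, among them Cd79a, Cd79b, Ms4a1 and Ptprc, were counted in every library, with a sum of 12709 and 12936 CPM (counts scaled to library size) in NSD1B WT and 11202 and 12210 in NSD1B KO. All CPM are scaled by the TMM method of edgeR and, unless stated, not by gene length.

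The haemoglobin genes were present at a low level in NSD1B WT and at a high level in NSD1B KO. Their sum was 283 and 260 counts in the NSD1B WT libraries and 13960 and 11329 counts in the NSD1B KO libraries. This is 0.00407% (95% Wilson interval 0.00362 to 0.00457) and 0.00364% (0.00323 to 0.00411) of the counts on genes in NSD1B WT. In NSD1B KO it is 0.184% (0.181 to 0.188) and 0.167% (0.164 to 0.170). Such intervals cover counting error only. The sum was 37.6 ± 2.86 CPM in NSD1B WT and 1812 ± 181 CPM in NSD1B KO (mean ± SD, n = 2 libraries each), a ratio of 48.2. Both NSD1B KO libraries lay above both NSD1B WT libraries for each of the 4 genes. Nothing is read from this, since the genes were chosen on this contrast and 37.1% of all tested genes were called higher. In bulk samples the number of cells that hold a transcript and its amount per cell cannot be told apart, and which cells held the haemoglobin transcripts was not tested. Mitochondrial transcripts made up 7.14% and 7.90% of the counts on genes in NSD1B WT and 8.98% and 9.27% in NSD1B KO, and their part in the result was not tested.

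**Figure D1:**
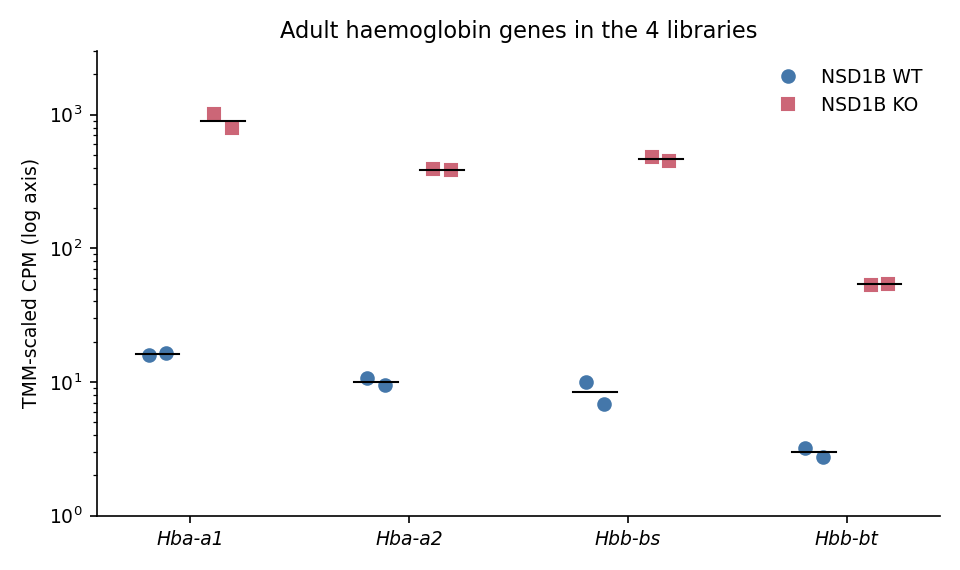
TMM-scaled CPM, on a log axis, of the 4 adult haemoglobin genes in each library of NSD1B WT (circles) and NSD1B KO (squares), with the mean of a genotype as a line. For each gene the squares lie above the circles, with ratios of the means from 18.1 for Hbb-bt to 55.8 for Hba-a1 and Hbb-bs.

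Hba-a1 (ENSMUSG00000069919.7, chromosome 11, 32283511 to 32284465, plus strand, mm10) encodes an alpha chain. It had 113 and 121 counts in NSD1B WT and 7289 and 5328 counts in NSD1B KO. The means were 16.2 ± 0.522 CPM and 902 ± 156 CPM (n = 2), a ratio of 55.8 with a 95% counting interval of 49.2 to 64.0. Its log2 fold change in the fit over all genes was 5.80 (standard error 0.12). Among the 8 genes, it showed the largest gap between libraries of 1 genotype in CPM, since NSD1B KO replicate 1 stood well above replicate 2.

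Hba-a2 (ENSMUSG00000069917.7, chromosome 11, 32296489 to 32297298, plus strand), the second alpha chain gene, had 76 and 69 counts in NSD1B WT and 2802 and 2602 counts in NSD1B KO. The means were 10.04 ± 0.846 CPM and 388 ± 1.85 CPM, a ratio of 38.7 (counting interval 32.8 to 46.0) and a log2 fold change of 5.27 (standard error 0.11). After scaling, the NSD1B KO libraries were closer to each other for Hba-a2 than for Hba-a1.

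Hbb-bs (ENSMUSG00000052305.6, chromosome 7, 103826534 to 103828096, minus strand) encodes a beta chain. It had 71 and 50 counts in NSD1B WT and 3486 and 3033 counts in NSD1B KO. The means were 8.39 ± 2.19 CPM and 468 ± 23.8 CPM, a ratio of 55.8 (counting interval 46.7 to 67.5) and a log2 fold change of 5.80 (standard error 0.12). Its ratio was the same as that of Hba-a1 to 3 digits.

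Hbb-bt (ENSMUSG00000073940.3, chromosome 7, 103812524 to 103813996, minus strand), the other beta chain gene, had 23 and 20 counts in NSD1B WT and 383 and 366 counts in NSD1B KO. The means were 2.98 ± 0.341 CPM and 53.8 ± 0.834 CPM, a ratio of 18.1 (counting interval 13.3 to 25.2) and a log2 fold change of 4.17 (standard error 0.20). The interval of this ratio did not reach those of the other 3 genes. Hbb-bt thus had the lowest level and the smallest ratio of the haemoglobin genes.

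Levels between the genes were compared per kilobase of exon. In NSD1B WT the order was Hba-a1 (19.9 ± 0.643 CPM per kb), Hba-a2 (15.05 ± 1.27), Hbb-bs (10.9 ± 2.85) and Hbb-bt (4.24 ± 0.486). Libraries of neighbouring genes in this order did not overlap. In NSD1B KO the order was Hba-a1 (1111 ± 192 CPM per kb), Hbb-bs (609 ± 30.9), Hba-a2 (582 ± 2.78) and Hbb-bt (76.6 ± 1.19). Here Hbb-bs and Hba-a2 differed by less than the SD of Hbb-bs, while the gaps between other neighbours were larger than their SDs. Each order rests on counts that can be split within a pair of genes.

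The make-up of the haemoglobin counts was read within each library, which needs no scaling. The alpha chain genes gave 66.8% (95% Wilson interval 61.1 to 72.0) and 73.1% (67.4 to 78.1) of the haemoglobin counts in NSD1B WT and 72.3% (71.5 to 73.0) and 70.0% (69.1 to 70.8) in NSD1B KO. The genotypes overlapped in this share. Hba-a2 gave 40.2% (33.5 to 47.3) and 36.3% (29.8 to 43.4) of the alpha counts in NSD1B WT and 27.8% (26.9 to 28.6) and 32.8% (31.8 to 33.9) in NSD1B KO. The NSD1B KO libraries differed from each other by more than counting error in this share. Hbb-bt gave 24.5% (16.9 to 34.0) and 28.6% (19.3 to 40.1) of the beta counts in NSD1B WT, but 9.90% (8.998 to 10.9) and 10.8% (9.77 to 11.9) in NSD1B KO. For Hbb-bt the intervals of the genotypes did not overlap. They cover counting error only, the NSD1B WT shares rest on 23 and 20 counts of Hbb-bt, and counts can be split within the pair of genes.

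**Figure D2:**
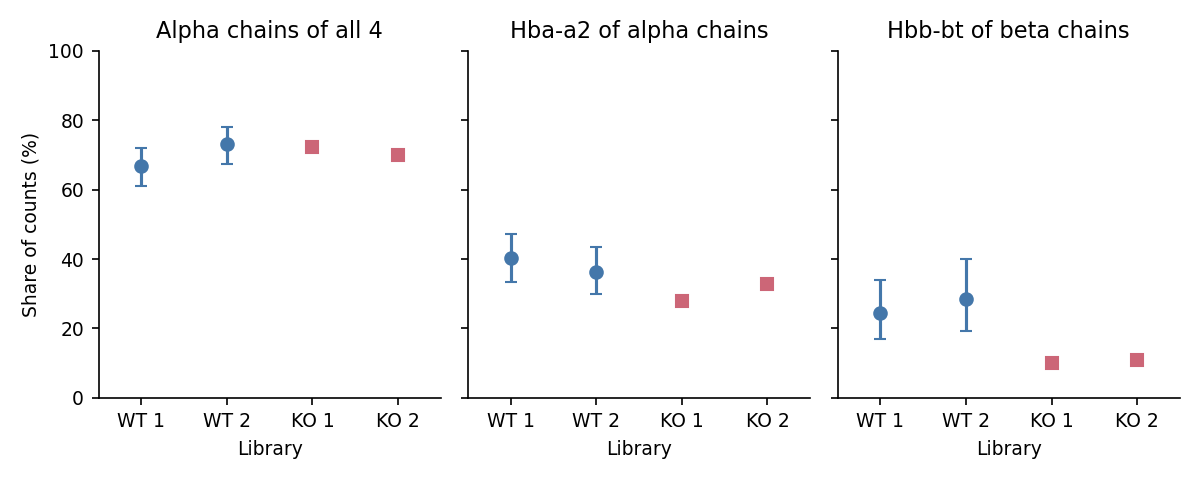
Share of counts in percent, by library, for the alpha chain genes among all 4 haemoglobin genes, Hba-a2 among the alpha chain genes and Hbb-bt among the beta chain genes. Bars are 95% Wilson intervals, which are smaller than the squares in NSD1B KO. The share of Hbb-bt is lower in NSD1B KO (9.90% and 10.8%) than in NSD1B WT (24.5% and 28.6%).

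By level in CPM, Hba-a1 stood at place 5632 of the 55401 genes in NSD1B WT and at place 130 in NSD1B KO, and Hbb-bs moved from place 7277 to place 327. By the fitted log2 fold change, 988 of the 11657 tested genes had a larger increase than Hba-a1. Of these, 890 had 0 counts in NSD1B WT, where the fitted size depends on a prior count, and the other 98 belong to the 9454 tested genes with counts in both genotypes. Of the same 9454 genes, 294 had a larger increase than Hbb-bt. In the plot of change against level, Hba-a1, Hba-a2 and Hbb-bs lie at the upper right edge.

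**Figure D3:**
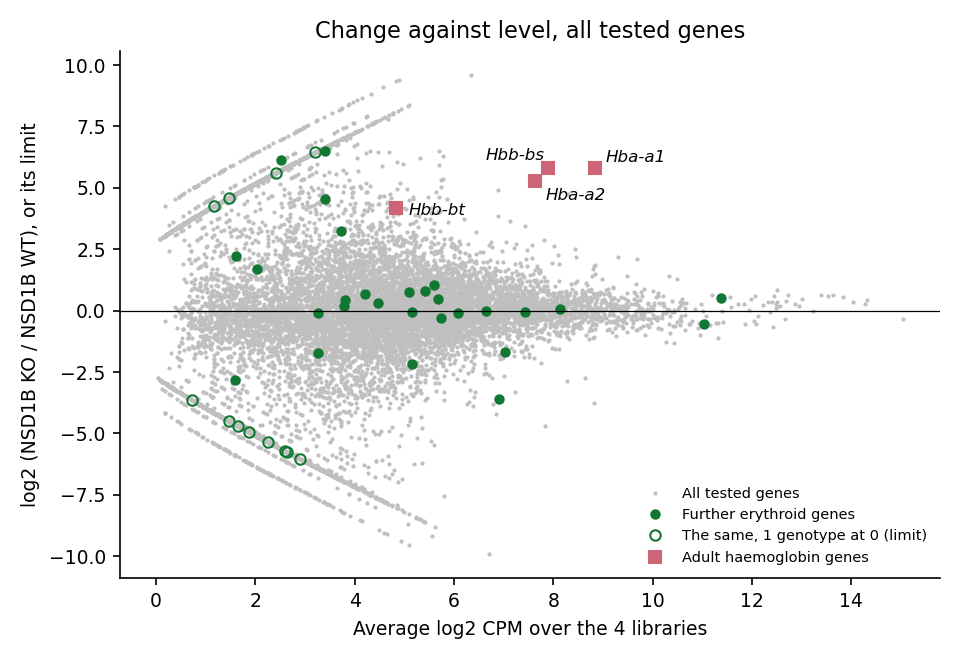
log2 ratio of NSD1B KO over NSD1B WT against the average log2 CPM for all tested genes (grey), the tested genes of 6 further erythroid lists (green) and the adult haemoglobin genes (squares). Genes with 0 counts in a genotype are drawn at the limit given by 3 counts over its libraries (open circles for the erythroid genes, the dense slanting lines for the others). Genes with 1 to 3 counts in a genotype are drawn at their fitted value. The haemoglobin genes have log2 fold changes from 4.17 to 5.80.

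The other erythroid genes examined had no counts at all. Slc4a1 (chromosome 11, 102348824 to 102366203) encodes band 3, the anion exchanger that is the most abundant protein of the red cell membrane. Epb42 (chromosome 2, 121017891 to 121037072) encodes protein 4.2, which ties band 3 to the cytoskeleton. Klf1 (chromosome 8, 84901928 to 84905291) and Gata1 (chromosome X, 7959260 to 7978071) encode the main transcription factors of the red cell lineage. Each of these 4 genes had 0 counts in all 4 libraries. A count of 0 over the 2 libraries of a genotype allows a level of up to 0.208 CPM in NSD1B WT and 0.215 CPM in NSD1B KO, taken as 3 counts. No ratio can be given for these genes.

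Thus 4 of the 8 genes passed the filter on low counts, and all 4 were higher in NSD1B KO, as were 37.1% of all tested genes. Since the genes were chosen on this contrast, nothing is read from that count.

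Further genes of the red cell lineage came from 6 lists of textbook genes that hold none of the 8. Of their 75 genes, 30 had 0 counts in all libraries and 5 were under the filter. Of the 40 tested, 16 (40.0%) were higher and 15 (37.5%) lower in NSD1B KO, next to 37.1% and 41.1% of all tested genes. The median log2 fold change of the 40 genes was 0.03, against -0.10 for all tested genes. Both shares lie near those of all tested genes, so the counts are no result about these lists. The shares of a single list rest on few genes, and no list was tested as a set. The adjusted p-values below are from edgeR's quasi-likelihood test.

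Among the other globin genes, Hbq1b was the single gene with counts. It encodes a theta chain of unknown role. It had 0 counts in NSD1B WT and 76 and 66 counts in NSD1B KO, at least 49.1-fold higher (adjusted p = 3.01e-14). The embryonic and minor genes Hba-x, Hbq1a, Hbb-y, Hbb-bh1, Hbb-bh2 and Hbb-bh0 had 0 counts in all libraries.

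All 13 genes for haem synthesis were tested. In NSD1B KO, 8 (61.5%) were higher and 3 (23.1%) lower, next to 37.1% and 41.1% of all tested genes. Alas2, the erythroid form of the first enzyme, had 0 counts in NSD1B WT and 31 and 39 counts in NSD1B KO, at least 24.3-fold higher (adjusted p = 1.40e-10). It shares 311 bp of exon with Apex2 on the opposite strand, which had 0 counts in NSD1B WT and 40 and 26 in NSD1B KO, so its counts are uncertain. Slc25a37, the mitochondrial iron importer of red cells, rose from 31.2 ± 2.65 to 64.9 ± 4.10 CPM (log2 fold change 1.06, standard error 0.12, adjusted p = 5.83e-11). Fech, which inserts iron into the ring, rose from 30.9 ± 2.26 to 54.3 ± 4.53 CPM (adjusted p = 1.10e-07). Urod, a decarboxylase in the middle of the pathway, rose from 42.8 ± 2.93 to 58.9 ± 1.56 CPM (adjusted p = 0.000316). Fam210b, a mitochondrial protein gene linked to haem synthesis, had 3 and 0 counts in NSD1B WT and 144 and 142 in NSD1B KO, a ratio of 99.0 with a counting interval of 33.5 to 483.

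Other enzymes of the same pathway went the opposite way. Alad, which joins the precursors into porphobilinogen, had 1631 and 1542 counts in NSD1B WT and 137 and 119 in NSD1B KO (log2 fold change -3.58, standard error 0.11, adjusted p = 3.49e-31). Uros and Ppox, which act later, had 61 and 67 and 95 and 109 counts in NSD1B WT and 0 in NSD1B KO, at least 41.1-fold and 65.4-fold lower. Ppox shares 791 bp of exon with B4galt3 on the opposite strand. Tmem14c, a transporter of porphyrins, was at 70.1 ± 0.731 and 65.3 ± 1.48 CPM and did not pass the test (adjusted p = 0.357). Haem synthesis thus held large changes in both directions, in a series where 78.2% of all tested genes were called.

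Of 18 genes of the red cell membrane and cytoskeleton, 11 had 0 counts in all libraries, among them Ank1, Rhag and Aqp1. These encode ankyrin 1, a gas channel of the Rh complex and a water channel. Sptb (4 counts in 1 NSD1B KO library), Dmtn and Ermap were under the filter. Of the 4 tested, Tmod1, a capping protein of actin filaments, was higher (12 and 14 counts in NSD1B WT, 35 and 47 in NSD1B KO, adjusted p = 0.000113). It shares 1287 bp of exon with Tstd2 on the opposite strand. Epb41, a cytoskeletal protein gene also used outside red cells, was lower (91 and 115 counts against 33 and 27, adjusted p = 1.49e-07). Gypc and Xk had 75 and 94 and 96 and 69 counts in NSD1B WT and 0 in NSD1B KO, at least 54.2-fold and 53.1-fold lower.

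Of 13 transcription factors and cofactors, Tal1, Nfe2, Gfi1b, Gata2 and Sox6 had 0 counts in all libraries, and Ldb1 was under the filter. Of the 7 tested, 0 were higher and 4 (57.1%) lower in NSD1B KO, next to 37.1% and 41.1% of all tested genes. Lmo2, Lyl1 and Zbtb7a passed in neither direction. Cbfa2t3, a corepressor, fell from 57.2 ± 3.07 to 12.7 ± 1.12 CPM (log2 fold change -2.17, standard error 0.15, adjusted p = 5.47e-18). Zfpm1, the cofactor FOG1 of GATA1, had 52 and 44 counts in NSD1B WT and 0 in NSD1B KO, at least 30.9-fold lower. Myb, a factor of early progenitors, had 40 and 28 counts against 0 and 9 (adjusted p = 1.09e-05), and its call was lost by DESeq2 (adjusted p = 0.217) and limma-voom (0.195). Bcl11a, a repressor of embryonic globin genes that B cells also use, was at 58.5 ± 3.75 and 47.4 ± 2.01 CPM (log2 fold change -0.30, adjusted p = 0.0131). Its call was lost without NSD1B WT replicate 2 (log2 fold change -0.21, adjusted p = 0.148), without NSD1B KO replicate 2 (-0.26, adjusted p = 0.0580) and by DESeq2 (adjusted p = 0.131).

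Of 8 genes for the erythropoietin receptor and iron, Epor, Tfrc and Tfr2, the receptors for erythropoietin and transferrin, had 0 counts in all libraries. Fth1, the heavy chain of the iron store ferritin, rose from 2207 ± 51.0 to 3134 ± 167 CPM (log2 fold change 0.51, standard error 0.08, adjusted p = 4.83e-08). Ftl1, the light chain, fell from 2485 ± 157 to 1699.8 ± 14.3 CPM (log2 fold change -0.55, standard error 0.08, adjusted p = 8.03e-09). Both have many near-identical copies in the genome, so their counts are uncertain. Slc11a2, an iron transporter, and Hfe, a regulator of iron uptake, had 37 and 44 and 25 and 14 counts in NSD1B WT and 0 in NSD1B KO, at least 26.0-fold and 12.6-fold lower. Steap3 was under the filter.

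Of 16 genes of late red cell maturation, 11 were tested and 4 of these were not past the threshold. In NSD1B KO, 5 (45.5%) were higher and 2 (18.2%) lower, next to 37.1% and 41.1% of all tested genes. Fbxo7, a subunit of ubiquitin ligases, had 7 and 5 counts in NSD1B WT and 146 and 133 in NSD1B KO (log2 fold change 4.56, standard error 0.34, adjusted p = 9.54e-17). It shares 314 bp of exon with an antisense gene that had 0 counts in NSD1B WT and 24 and 12 in NSD1B KO. Ube2o, a ubiquitin-conjugating enzyme that acts in reticulocytes, had 0 and 2 counts against 92 and 60, a ratio of 78.9 with a counting interval of 21.5 to 657. Xpo7, a nuclear exporter, rose from 14.2 ± 2.41 to 22.4 ± 0.966 CPM (adjusted p = 0.00133). Car2, a carbonic anhydrase, had 5 and 9 counts against 28 and 36 (adjusted p = 2.39e-05).

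Catalase, encoded by Cat, fell from 198 ± 0.837 to 61.7 ± 5.90 CPM (log2 fold change -1.68, standard error 0.09, adjusted p = 2.63e-21). Bpgm, which makes the red cell regulator bisphosphoglycerate, had 36 and 35 counts in NSD1B WT and 0 in NSD1B KO, at least 22.8-fold lower. Prdx2 and Bnip3l, of high level in red cells but used widely, were at 271 ± 11.4 and 176 ± 0.883 CPM in NSD1B WT and 287 ± 14.9 and 169 ± 10.8 CPM in NSD1B KO and did not pass the test (adjusted p = 0.354 and 0.539). Car1, Trim10, Trim58, Hemgn and Pklr had 0 counts in all libraries.

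**Figure D4:**
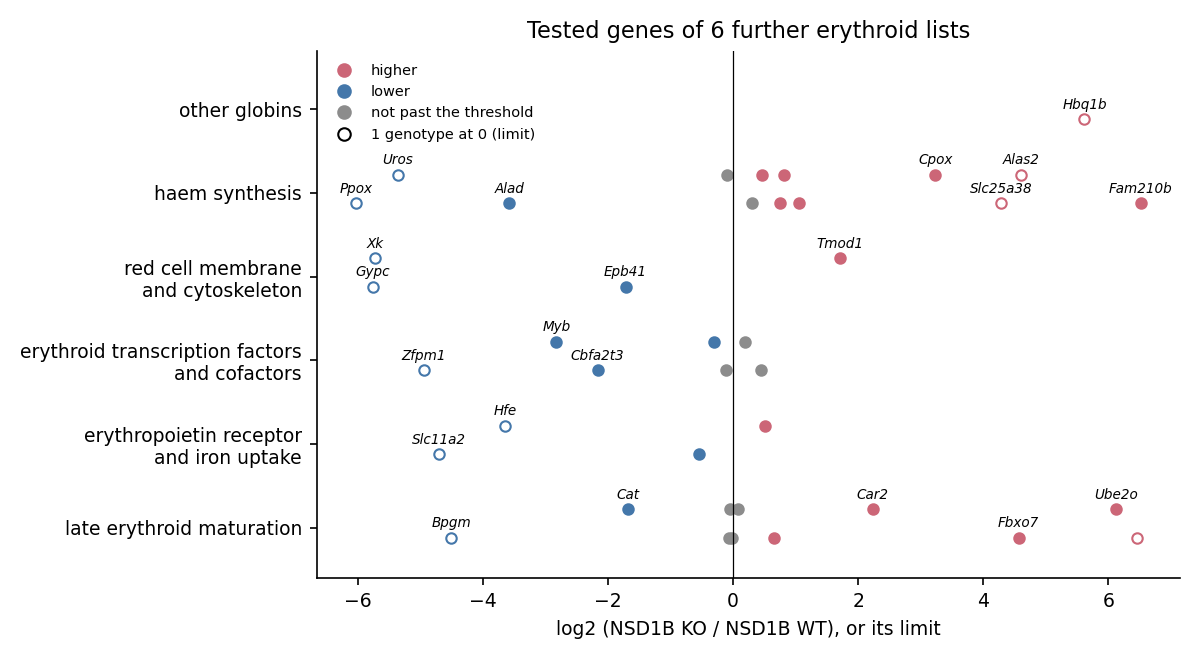
log2 ratio of NSD1B KO over NSD1B WT for the 40 tested genes of the 6 further erythroid lists, 1 point a gene, higher in red, lower in blue and not past the threshold in grey. Open circles are genes at 0 in a genotype, drawn at the limit given by 3 counts, vertical offsets within a list only separate points, and not every point is named. Higher and lower genes, 16 and 15 in all, stand side by side in most lists.

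Beside Hbq1b, 6 genes around the alpha-globin genes on chromosome 11 that are not globin genes were examined. Of these, Snrnp25, Nprl3, Mpg, Sh3pxd2b and Rhbdf1 were tested and all were lower in NSD1B KO, where 41.1% of all tested genes were. Nprl3, whose introns hold the main enhancers of the alpha-globin genes, had 178 and 202 counts in NSD1B WT and 107 and 117 in NSD1B KO (log2 fold change -0.71, standard error 0.17, adjusted p = 0.000261). Mpg had 164 and 196 counts against 97 and 84 (log2 fold change -0.94, adjusted p = 1.02e-05). The exons of Mpg and Nprl3 overlap by 1340 bp on opposite strands, so these genes are not independent. Snrnp25, a spliceosome protein gene, fell from 420 ± 11.6 to 253 ± 15.3 CPM (adjusted p = 1.74e-11). Sh3pxd2b had 28 and 34 counts in NSD1B WT and 0 in NSD1B KO, at least 19.9-fold lower. Ubtd2 was under the filter.

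The 5 genes most like the haemoglobin genes over the 4 libraries, by the distance between log2 CPM profiles centred on their mean, were Med14, Hbq1b, Camk2b, Prmt7 and Itga2. Med14, a mediator subunit gene, had 19 and 18 counts in NSD1B WT and 830 and 660 in NSD1B KO, a ratio of 41.7 and a distance of 0.119. The other 4 had 0 counts in NSD1B WT and between 64 and 76 in each NSD1B KO library, at distances from 0.148 to 0.152. For these 4 the distance depends on the prior count of 2 that replaces 0. Hba-a1 and Hbb-bt themselves lay 0.615 and 1.16 from the mean of the haemoglobin genes, so 4 libraries with 1 difference between genotypes tell genes apart only by the size of that difference.

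Markers of other cells that a B220 sort of spleen could hold were summed in the same libraries. Of 13 genes of red pulp macrophages and haem recycling, cells that take up old red cells, 9 were tested, 6 were higher and 2 lower in NSD1B KO, next to 37.1% and 41.1% of all tested genes. Their sum was 427 and 457 CPM in NSD1B WT and 531 and 575 CPM in NSD1B KO. Csf1r had 23 and 27 counts in NSD1B WT and 375 and 335 in NSD1B KO (log2 fold change 3.87, standard error 0.20, adjusted p = 7.22e-23). Adgre1, the gene of F4/80, rose from 44.8 ± 1.70 to 84.1 ± 6.87 CPM (adjusted p = 1.77e-10). Cd163, the receptor that takes up free haemoglobin, had 0 counts in NSD1B WT and 116 and 69 in NSD1B KO, at least 63.6-fold higher. C1qc was higher and C1qa lower (log2 fold change 0.33 and -0.78), and C1qb was not called (-0.23, adjusted p = 0.0107, but a fold change under 1.2). C1qb was called lower when libraries were scaled by size alone (-0.31) or by the upper quartile (-0.27) and without NSD1B KO replicate 1 (-0.28). The call of C1qc was lost when libraries were scaled by size alone (0.25). Spic, the transcription factor of these macrophages, had 92 and 105 counts in NSD1B WT and 0 in NSD1B KO, at least 63.2-fold lower, and Slc40a1, Hmox1 and Hpgd had 0 counts in all libraries.

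Of 13 platelet and megakaryocyte genes, 11 had 0 counts in all libraries, among them Ppbp, Itga2b and Gp9. Pf4 was the exception, at 160 ± 9.16 CPM in NSD1B WT and 227 ± 5.94 CPM in NSD1B KO (log2 fold change 0.50, standard error 0.08, adjusted p = 4.48e-07), and Gp1ba had 3 and 6 counts in NSD1B KO. The sum of the list was 154 and 167 CPM in NSD1B WT and 224 and 232 CPM in NSD1B KO. Of 12 genes of neutrophils and their precursors, 8 had 0 counts in all libraries, among them Ngp, Camp, Elane and Mpo. S100a8 had 39 and 28 counts in NSD1B WT and 0 in NSD1B KO, and S100a9, whose protein pairs with that of S100a8, had 0 in NSD1B WT and 13 and 13 in NSD1B KO. Prtn3, a protease gene of granulocyte precursors, had 63 and 75 counts against 53 and 72 (adjusted p = 0.773). The sum of this list was 14.1 and 14.3 CPM against 9.17 and 12.8 CPM. The ratio of the haemoglobin sum between genotypes, 48.2, was larger than that of the sum of any of these lists. Nothing is read from this, since the haemoglobin genes were chosen on this contrast and the list sums rest mostly on a few abundant genes. Single genes of the lists changed by as much, such as Cd163 (at least 63.6-fold higher) and Spic (at least 63.2-fold lower). The part of such cells in the haemoglobin counts was not tested. Csf1r, Prtn3, Bcl11a, Ftl1 and Prdx2 also share exon sequence with counted genes on the opposite strand, so their counts carry the same uncertainty as those of Alas2.

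**Figure D5:**
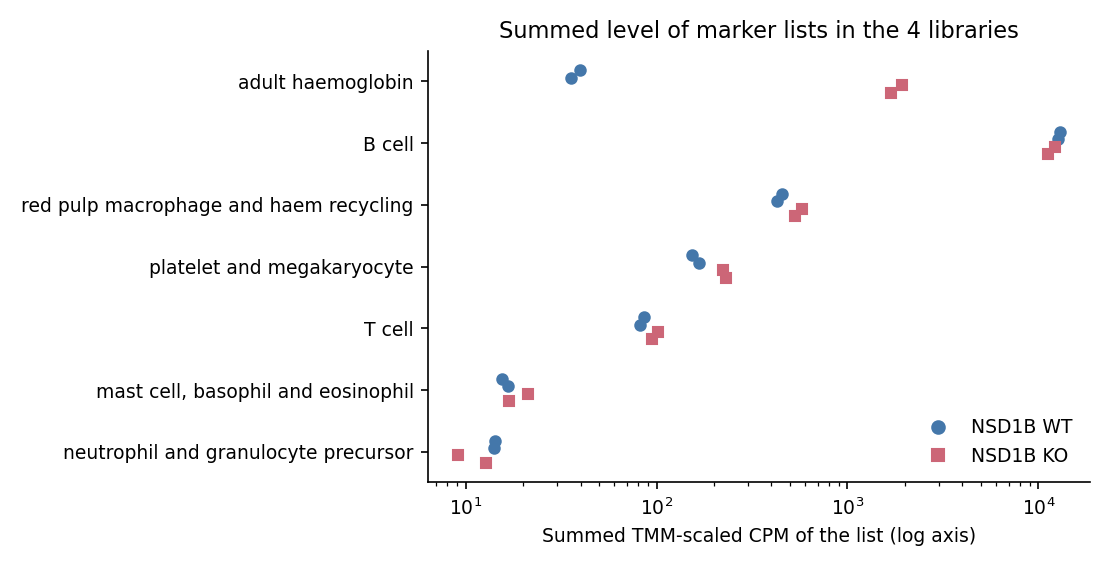
Summed TMM-scaled CPM, on a log axis, of the adult haemoglobin genes and of 6 lists of marker genes in each library of NSD1B WT (circles) and NSD1B KO (squares). The haemoglobin sum is at 35.6 and 39.6 CPM in NSD1B WT and at 1684 and 1940 CPM in NSD1B KO. The sums of the other lists stay close between genotypes on this axis. Single genes within them changed far more than the sums, such as Csf1r and Cd163 (higher) and Spic (lower).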

How the data were processed

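B220+ B cells from the spleen were sequenced in 4 libraries. The authors mapped paired-end reads to mm10 with Bowtie2, and deposited whole-number counts per gene, not normalized. Their FPKM from Cufflinks were not used here. Which program counted the reads, with which strand setting and gene models, is not stated in the labels or methods read here. Lines that name no gene were left out of library sizes, and reads on no gene made up 44.3% to 44.6% of the counted reads. Positions and exon lengths are from GENCODE M21, in which 99.5% of the identifiers were found.

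Counts were scaled by TMM and tested with edgeR 4.0.16 (quasi-likelihood, R 4.3.3) on genes passing filterByExpr (minimum count 10, minimum total 15), with Benjamini-Hochberg adjustment. Standard errors are the log2 fold change divided by the root of F. The thresholds are those of the study, with p taken as adjusted. A genotype at 0 was set to 3 counts over its libraries. Ratios with counting intervals used exact binomial limits at 95%. Promoter sequences are from RefSeq. The procedure was tested on simulated data. Libraries of the same genotype differed by more than sampling noise (chi-square per gene of 2.92 in NSD1B WT and 3.78 in NSD1B KO).

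The genes examined and the lists were chosen with earlier results of these data known. Named from each list were at most 4 called genes, taken by mean CPM, and the 2 genes of highest mean CPM, plus the 5 genes most like the haemoglobin genes. A few genes that this rule names are not reported here. Any other list gene in the text was picked with its values in view. The alternatives comprised the size factors and the Wald test of DESeq2 1.42.0, limma-voom (limma 3.58.1), other scalings, another filter, stricter thresholds, a replicate block and each library left out.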

Additional observations from a re-analysis of the deposited data

How the results depend on the processing

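The ratio of the haemoglobin sum, 48.2, lay between 45.6 and 49.0 under the other scalings and with haemoglobin left out of the library sizes, and between 44.8 and 51.6 with each library left out in turn. The log2 fold change of Hba-a1 ranged from 5.61 to 5.97 over 13 fits, that of Hba-a2 from 5.19 to 5.39, that of Hbb-bs from 5.58 to 6.12 and that of Hbb-bt from 4.08 to 4.32. No alternative could be computed for Slc4a1, Epb42, Klf1 and Gata1, which had no count. Of the further erythroid genes, 12 to 17 were higher and 13 to 16 lower over the alternatives. Over all tested genes, leaving out a library gave 4122 to 4342 higher and 4356 to 4936 lower. Genes with changes near 0 turned sign without a call. With a library left out, the log2 fold change of Bnip3l lay between -0.13 and 0.012, the latter without NSD1B KO replicate 2. That of Prtn3 lay between -0.37 and 0.16, above 0 without NSD1B WT replicate 2 (0.06) and without NSD1B KO replicate 1 (0.16).

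With the replicate number as a block, 4254 genes were higher and 4706 lower, and 16 and 15 of the further erythroid genes. The deviations of same-numbered libraries correlated at 0.07 over 7013 genes of 10 CPM or more, and the labels do not say that a number marks a shared mouse or day. A haemoglobin count of 20 to 121 in NSD1B WT limits the precision of each ratio.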

Other observations

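The 10 T cell genes summed to 81.7 and 85.8 CPM in NSD1B WT and 94.8 and 102 CPM in NSD1B KO. Of the 6 tested, 3 were higher and 2 lower in NSD1B KO, next to 37.1% and 41.1% of all tested genes, so the count is no result about T cells. Cd3g and Cd3d, chains of the T cell receptor complex, rose (log2 fold change 1.07 and 0.93, adjusted p = 3.67e-08 and 0.000298 from edgeR's quasi-likelihood test). Trbc1, a constant region of the receptor beta chain, had 7 and 7 counts in NSD1B WT and 131 and 108 in NSD1B KO, while Trac, the constant region of the alpha chain, had 183 and 214 counts against 92 and 64 (adjusted p = 4.50e-15 and 2.75e-08). Cd4 and Cd8a had 0 counts in all libraries.

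Of 8 genes of mast cells, basophils and eosinophils, lineages that also use GATA1, Cpa3 was the single gene with counts, at 16.1 ± 0.817 CPM in NSD1B WT and 19.1 ± 3.05 CPM in NSD1B KO, and it did not pass the test (adjusted p = 0.222). Among the B cell genes, 6 of 8 were lower in NSD1B KO, next to 41.1% of all tested genes. Pax5, a transcription factor of B cell identity, had 279 and 342 counts in NSD1B WT and 30 and 31 in NSD1B KO (log2 fold change -3.29, adjusted p = 6.31e-20). Its counts are uncertain, since 636 bp of its exons overlap an opposite-strand gene. Ms4a1, Cd79a and Ptprc fell by 0.57, 1.33 and 0.49 on the log2 scale (adjusted p = 2.67e-09, 7.99e-21 and 1.03e-07). Cd79b was at 6825 ± 65.3 and 8159 ± 532 CPM, a log2 fold change of 0.26 that stood at the limit of 1.2-fold and was called under 7 alternatives.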
